A study of Mus musculus with 4 samples.

Results

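Collagen transcripts were examined in the prostates of 4 mice, read on 4 Agilent 2-colour arrays of 60-base probes. The collagen probes were taken by name: every probe that was not a control and whose gene name in the array files was Col, a number, the letter a and a number was a member. This gave 40 genes of 27962 gene names on the array, read by 78 of 41174 probes. They fall into 25 probes of 11 fibrillar collagen genes, 17 probes of 8 basement membrane collagen genes (Col4a1 to Col4a6, Col15a1 and Col18a1) and 36 probes of 21 other collagen genes.

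The 2 mutant mice carried 1 Rb1 allele coding for the R654W form of the retinoblastoma protein and 1 conditional (F) Rb1 allele (Rb1R654W/F:Trp53F/F:PB-cre4). The 2 null mice carried 2 conditional Rb1 alleles (Rb1F/F:Trp53F/F:PB-Cre4). All 4 mice also carried 2 conditional Trp53 alleles and the PB-Cre4 transgene, in which the probasin promoter drives Cre in prostate epithelium, so stromal cells, the main source of fibrillar collagen, are not the cells this Cre targets. All were 60 days old, untreated and of a mixed C57BL/6:129/SVJae:FVB background. Each array compared the Cy5-labelled RNA of 1 mouse with Cy3-labelled RNA pooled from the prostates of 3 wild-type mice. The series asks how prostate with an Rb protein that cannot bind E2F compares with prostate that has lost Rb1.

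Collagens are secreted proteins built of 3 chains that wind into a triple helix, which requires glycine at 1 residue in every 3. Fibrillar collagens (types I, II, III, V, XI, XXIV and XXVII) form the tensile fibres of connective tissue, and in the prostate they are made chiefly by stromal fibroblasts. Type IV collagen forms the network of the basement membrane under the epithelium and around vessels and smooth muscle. The remaining types link fibrils, anchor the epithelium, form beaded filaments or sit in the cell membrane.

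The repeat can be read directly in the probes. Only 3 of the 41174 probes have 60 bases that code, in 1 open frame, for glycine at 1 codon in every 3, and all 3 are collagen probes. They are shown because they carry the defining motif of the family. The glycine codons are in capitals, and the 60 bases lie at chr17:32131401-32131567 for Col11a2 and chr2:27994034-27996457 for Col5a1, both on the plus strand, and at chr9:20655471-20656200 on the minus strand for Col5a3 (build mm7, as the files give it). Each interval is longer than the probe, so these probes join parts of the genome that lie apart, as across an exon junction.
Col11a2: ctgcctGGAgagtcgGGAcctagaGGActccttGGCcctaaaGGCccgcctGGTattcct
Col5a1: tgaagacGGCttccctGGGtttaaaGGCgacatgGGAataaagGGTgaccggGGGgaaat
Col5a3: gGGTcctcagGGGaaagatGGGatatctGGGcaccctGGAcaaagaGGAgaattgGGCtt

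None of these 3 probes passed the filter on dim probes. To pass, a probe had to be well above background in both mice of either genotype, or in the pool channel of each of the 4 arrays. Over the array, 24918 probes passed. Of the collagens, 50 probes of 34 genes passed: 13 of 25 fibrillar, 16 of 17 basement membrane and 21 of 36 other collagen probes. Members that did not pass are listed here by gene only: no probe passed for Col24a1 among the fibrillar genes or for Col9a1, Col9a3, Col10a1, Col19a1 and Col28a1 among the others, while 1 or 2 probes of 16 further genes also failed.

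Position along the gene went with passing. Of 28 collagen genes with more than 1 probe, the probe nearest the 3′ end passed for 24. Of the other probes of those genes, 16 of 17 that lay under 10000 genomic bases upstream of it passed, against 2 of 21 that lay farther upstream, 1 in Col13a1 and 1 in Col22a1. The distance of 10000 bases was chosen after the positions and results were seen, and introns count in it. Distances were taken from the probe nearest the 3′ end on the array, and where the probes lie in the transcripts was not measured. The second Col4a1 probe is shown because it passed although its 60 bases span the longer interval chr8:11167857-11169691 on the minus strand (mm7).
Col4a1: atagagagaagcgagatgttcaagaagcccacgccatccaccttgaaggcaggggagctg

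Before the values, the 4 arrays differ in ways that touch them. After background subtraction the mouse channel had a median of 90.1 for mutant mouse 1, 81.9 for mutant mouse 2, 20.5 for null mouse 1 and 55.1 for null mouse 2, beside pool medians of 24.2 to 24.9. The array of null mouse 1 thus stands apart. Its 19 heat shock probes had a median log2 ratio to the pool of 3.32, against 0.13 and -0.14 in the mutant mice and 0.20 in null mouse 2. The prostate epithelial gene Pbsn, which codes for probasin, was well above background in all 4 mice. The 3 seminal vesicle probes past the filter had medians of -4.02 and -0.43 in the mutant mice and -3.99 and -3.45 in the null mice. The Rb1 probe past the filter gave -0.65 and -0.24 in the mutant mice and 0.09 and -0.87 in the null mice, and whether it lies in the deleted part is not known here. The arrays shared 1 slide and 1 scan. The mice of a genotype sat next to each other on it, and the effects of place and genotype cannot be told apart.

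Every value below is a log2 ratio of 1 mouse over the wild-type pool, so that 1 is a doubling and 0 is the level of the pool. In bulk tissue, fewer cells of a type and less RNA per cell cannot be told apart. No collagen passed the threshold of an adjusted p under 0.05 in limma in any comparison. Nor did any other probe: the share called was 0% between mutant and null and 0% for each genotype against the pool. The smallest adjusted p among collagens was 0.985 between mutant and null, 0.453 for mutant against pool and 0.474 for null against pool. At an unadjusted p under 0.05 there was no collagen probe of 50 between mutant and null, beside 2.19% of all probes, 1.2% higher and 0.995% lower. For mutant against pool there were 6, beside 10.6% of all probes, with 2 higher (6.26%) and 4 lower (4.35%). For null against pool there were 4, beside 10.2% of all probes, with 1 higher (4.82%) and 3 lower (5.38%). Both mutant mice lay above the pool on 21 of the 50 collagen probes and below it on 13, beside 37.2% and 29.3% of all probes. Both null mice lay above it on 11 and below it on 12, beside 29.2% and 27.3%. What follows gives levels and their spread, with no collagen called as different.

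On each of the 13 fibrillar probes, the 2 null mice differed from each other by more than the genotype means did. Col1a1 codes for the main chain of type I collagen, the most common fibril of connective tissue. Its probe A_52_P525107 stood at -0.63 and 0.09 in the mutant mice, against -0.85 and 0.38 in the null mice. A second Col1a1 probe, A_51_P377094, gave 0.02 and 0.43 in the mutant mice, against -0.73 and 0.48 in the null mice. On both probes null mouse 1 was the lowest array and null mouse 2 the highest, so the mutant mice lay between them and the genotypes overlapped. The fitted differences, mutant minus null, were -0.03 (SE 0.48) and 0.35 (SE 0.44), and both signs depend on single mice. The first difference is 0.32 without mutant mouse 1, -0.65 without null mouse 1 and 0.58 without null mouse 2, and the second is -0.26 without null mouse 1.

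Other major fibrillar chains had the same order. Col1a2, the second chain of type I collagen, stood at 0.66 and 0.80 in the mutant mice, against -0.84 and 0.84 in the null mice. Col3a1, the chain of type III collagen of distensible tissue, stood at -0.05 and 0.39 in the mutant mice, against -1.35 and 0.56 in the null mice. For Col3a1 that is the widest gap between replicates among the fibrillar probes, and its difference of 0.56 (SE 0.64; adjusted p = 0.985 in limma) becomes -0.40 without null mouse 1. For Col1a2 the difference was 0.73 (SE 0.56), the largest of any collagen probe, and it too is within the spread of the null mice.

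Type V collagen is the minor fibrillar type that sits inside type I fibrils and limits their width. Col5a1 gave 0.81 and 0.50 in the mutant mice, against -0.68 and 0.86 in the null mice. Col5a2 gave 0.20 and 0.61 in the mutant mice, against -0.46 and 0.83 in the null mice. These 2 chains again had null mouse 1 lowest and null mouse 2 highest. Col5a3 differed from them in lying below the pool in every mouse, at -0.08 and -0.48 in the mutant mice and -0.90 and -0.21 in the null mice. Its unadjusted p for null against pool was 0.04997 and its adjusted p 0.489 in limma, so it did not pass.

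The cartilage types behaved unevenly. Col2a1, known as the chain of cartilage collagen, had 2 probes past the filter whose positions overlap on chromosome 15. One gave 0.06 and 0.26 in the mutant mice and -0.57 and 0.59 in the null mice, while the other gave 0.16 and 0.05 in the mutant mice and 0.38 and 0.00 in the null mice. The 2 probes therefore put the null mice in opposite order, although they share most of their bases. Col11a1, a partner of type II collagen in its fibrils, stayed between -0.12 and 0.26 over the 4 arrays. Col11a2, another chain of type XI, stood at 0.05 and 0.14 in the mutant mice, against 0.99 and 0.06 in the null mice, so its 1 high value belongs to null mouse 1. The 2 probes of Col27a1, a chain of cartilage and developing tissue, lay between -0.29 and 0.03.

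**Figure D1:**
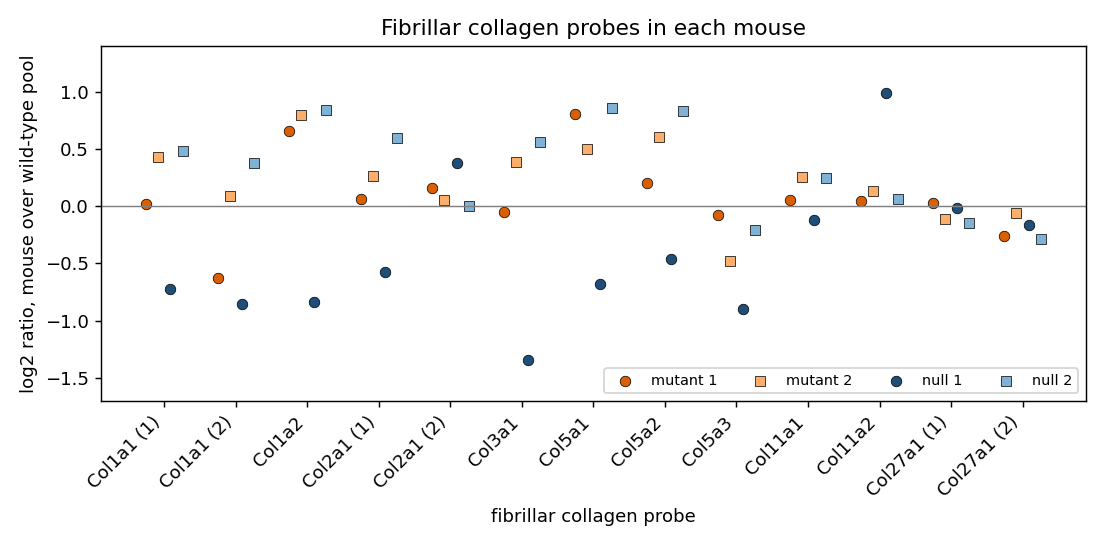
Log2 ratio to the wild-type pool (vertical axis) of each of the 13 fibrillar collagen probes past the filter (horizontal axis), with 1 point per mouse and numbers marking different probes of 1 gene. Null mouse 1 is the lowest of the 4 arrays on 9 of the 13 probes, and the mutant mice lie between the null mice for Col1a1, Col1a2, Col3a1, Col5a1 and Col5a2.

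Counted over the class, null mouse 1 was lowest and null mouse 2 highest on 7 of 13 fibrillar probes, and 11.7% of all probes had that order. Null mouse 2 was at least 2-fold above null mouse 1 on 7 of 13, against 3.97% of all probes. The genotypes overlapped on all 13 fibrillar probes, while 30.4% of all probes had genotypes that did not overlap. The median SD within a genotype was 0.14 for the mutant mice and 0.82 for the null mice. The class median was 0.05 and 0.26 in the mutant mice and -0.57 and 0.38 in the null mice, beside 0.03, 0.02, -0.01 and 0.01 for all probes in the same order of mice. The median of the mutant minus null differences was 0.15, it was -0.11 without null mouse 1 and 0.62 without null mouse 2, so 1 library decides its sign.

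Probes printed at several spots give the noise within an array. The Col1a1 probe A_52_P525107 was printed at 10 spots of each array, whose mean ± SD was -0.63 ± 0.18 and 0.09 ± 0.04 in the mutant mice and -0.85 ± 0.06 and 0.38 ± 0.06 in the null mice. The Col2a1 probe A_51_P317141 was read at 8 or 9 spots after flagged spots were left out, giving 0.06 ± 0.05 and 0.26 ± 0.07 in the mutant mice and -0.57 ± 0.07 and 0.59 ± 0.03 in the null mice. The gap between the null mice was thus many times the SD between spots on both probes. Spots of 1 array share 1 RNA and are not replicates of a mouse.

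**Figure D2:**
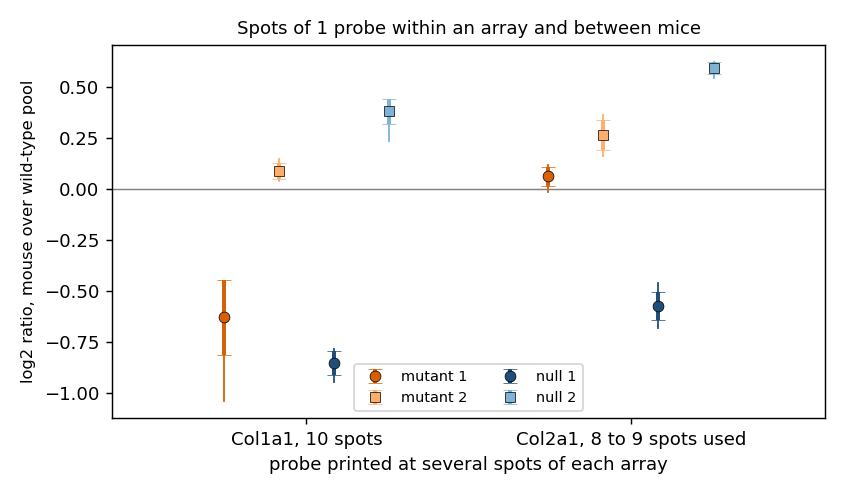
Log2 ratio to the wild-type pool (vertical axis) of the Col1a1 and Col2a1 probes printed at several spots of each array (horizontal axis). Points are the mean over spots, thick bars with caps the SD over spots and thin lines the lowest to highest spot. The null mice stand apart on both probes, and mutant mouse 1 has the widest spread between spots, for Col1a1.

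The upstream sequences of Col1a2 and Col3a1, fibrillar genes with null mouse 1 lowest and null mouse 2 highest, are shown with 3 short promoter motifs in capitals wherever they occur on either strand. The first motif is CCAAT, which reads as ATTGG on the other strand. The second is TATAAA, which reads there as TTTATA, and the third is GGGCGG, which reads there as CCGCCC. Each is the 250 bases before the annotated start in RefSeq (GRCm38.p6), at chr6:4505368-4505617 for Col1a2 and chr1:45311288-45311537 for Col3a1, both on the plus strand. Col1a2 holds 1 CCAAT and 2 GGGCGG, and Col3a1 holds 1 TATAAA.
Col1a2: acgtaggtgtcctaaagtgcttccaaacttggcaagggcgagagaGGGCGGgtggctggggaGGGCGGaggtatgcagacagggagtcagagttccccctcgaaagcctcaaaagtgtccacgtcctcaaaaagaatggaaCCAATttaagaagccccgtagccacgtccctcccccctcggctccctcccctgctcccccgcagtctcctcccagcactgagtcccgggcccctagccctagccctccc
Col3a1: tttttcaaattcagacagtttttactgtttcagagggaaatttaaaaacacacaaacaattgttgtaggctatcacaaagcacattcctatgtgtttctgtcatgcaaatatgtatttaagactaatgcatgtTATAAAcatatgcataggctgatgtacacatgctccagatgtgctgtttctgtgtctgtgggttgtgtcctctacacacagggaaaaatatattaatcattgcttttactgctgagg

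These 2 genes share none of the motifs in this window. RefSeq windows were given for 32 of the 40 collagen genes, 35 windows in all. CCAAT was in 34.3% of the collagen windows and 33.8% of all 32851 windows, TATAAA in 14.3% and 12.4%, and GGGCGG in 54.3% and 32.7%. A match is a description of the letters only.

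The basement membrane collagens lay near the pool, with smaller gaps between the null mice. Col4a1 codes for 1 of the 2 chains of the ubiquitous type IV network. Its probe A_51_P124254 gave -0.49 and 0.17 in the mutant mice, against 0.04 and 0.03 in the null mice. The Col4a1 probe printed above, A_52_P518827, gave -0.07 and 0.35 in the mutant mice, against -0.02 and 0.30 in the null mice. Mutant mouse 1 was the lowest array on both, the genotypes overlapped, and the differences of -0.19 (SE 0.27) and -0.0036 (SE 0.24) become 0.14 and 0.21 without that mouse. Col4a2, the partner chain encoded by the neighbouring gene on the opposite strand of chromosome 8, lay between -0.23 and 0.19 on its 2 probes. Over the 16 probes the class median was -0.10 and 0.24 in the mutant mice and 0.03 and 0.06 in the null mice. The genotypes did not overlap on 4 of the 16, 2 higher and 2 lower in the mutant mice, beside 16.8% and 13.6% of all probes. Those higher were probes of Col4a3 and Col4a5, and those lower were probes of Col4a4 and Col18a1.

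The chains of more restricted networks varied more. Col4a5, which joins Col4a3 and Col4a4 in the filtering membrane of the kidney, stood at 0.56 and 0.42 in the mutant mice, against -0.07 and 0.19 in the null mice. The genotypes did not overlap, and the difference was 0.43 (SE 0.20; unadjusted p = 0.0791, adjusted p = 0.985 in limma). Against the pool the mutant mean was 0.49 (unadjusted p = 0.0165, adjusted p = 0.453). Col4a6, its neighbour on chromosome X, did not follow it. Its 3 probes gave -0.41 and 0.46, -0.27 and 0.29, and -0.03 and 0.62 in the mutant mice, against 0.31 and -0.78, 0.06 and -0.74, and 0.79 and -0.30 in the null mice. On all 3 probes mutant mouse 2 lay above mutant mouse 1 and null mouse 2 was the lowest array, so the mice of each genotype disagreed and the probes did not.

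Col4a3 and Col4a4 gave mixed readings. Col4a3 (A_51_P296535) stood at -0.18 and 0.13 in the mutant mice, against -0.19 and -0.21 in the null mice, without overlap but with almost no gap between the genotypes. Col4a4 (A_51_P382708) stood at 0.26 and 0.10 in the mutant mice, against 0.28 and 0.29 in the null mice. Its second probe gave 0.86 and 0.55 in the mutant mice, against -0.31 and 0.75 in the null mice, which put the genotypes the other way round on average. Both genes thus had no reading that separates the genotypes by more than a replicate's spread on every probe.

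Col15a1 and Col18a1 code for the proteoglycan collagens of the outer basement membrane zone, and endostatin is a fragment of the Col18a1 product. Col15a1 (A_51_P159792) stood at 0.31 and 0.37 in the mutant mice, against 0.03 and 0.62 in the null mice. Col18a1 (A_51_P191700) stood at -0.58 and -0.28 in the mutant mice, against 0.07 and -0.24 in the null mice. The mutant mean of Col18a1 was -0.43 against the pool (unadjusted p = 0.0397, adjusted p = 0.455 in limma), and -0.014 relative to all probes with median centring in place of loess. A second Col18a1 probe lay between -0.15 and 0.05, so this reading rests on 1 probe.

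**Figure D3:**
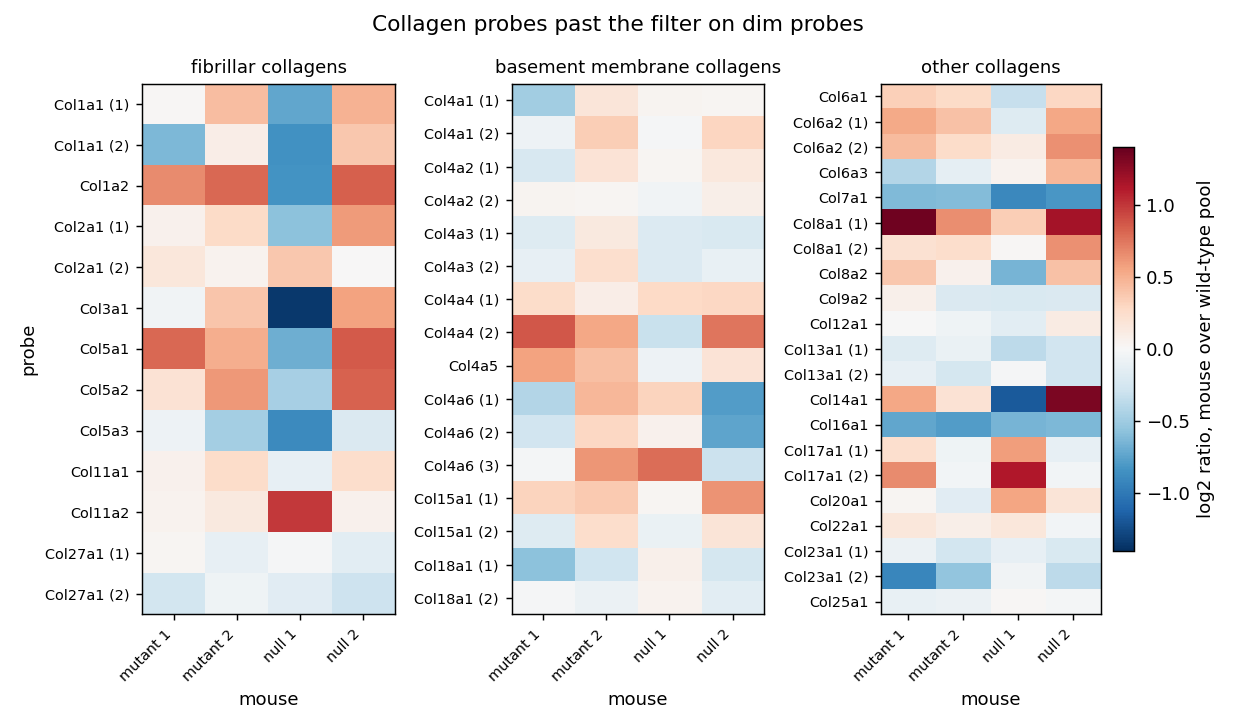
Log2 ratio to the wild-type pool (colour, red above and blue below the pool) of all 50 collagen probes past the filter (rows, in 3 panels by class) in each mouse (columns). The column of null mouse 1 is blue through most of the fibrillar panel, with Col3a1 at -1.35, while Col7a1 and Col16a1 among the other collagens are blue in all 4 mice.

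Among the other collagens, 2 lay clearly below the pool in every mouse and 1 above it. Col7a1 codes for the anchoring fibrils that tie epithelium to stroma. It stood at -0.62 and -0.61 in the mutant mice, against -0.91 and -0.82 in the null mice. All 4 values are below the pool, with the null mice lower than the mutant mice. The means were -0.61 (SE 0.12; unadjusted p = 0.00417, adjusted p = 0.453 in limma) for mutant against pool and -0.86 (SE 0.12; unadjusted p = 0.000914, adjusted p = 0.474) for null against pool. Between the genotypes the difference was 0.25 (SE 0.18; adjusted p = 0.985).

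Col16a1, a fibril-associated collagen, also had close replicates. It stood at -0.72 and -0.78 in the mutant mice, against -0.65 and -0.63 in the null mice. The means were -0.75 for mutant against pool (SE 0.12; adjusted p = 0.453 in limma) and -0.64 for null against pool (SE 0.12; adjusted p = 0.474). With median centring in place of loess, and relative to the median of all probes, mutant against pool was -0.13 for Col7a1 and -0.27 for Col16a1, so the size of both depends on the intensity-dependent correction. In that setting Col16a1 is higher in mutant than in null mice.

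Col8a1, a network collagen of vessel walls, lay above the pool in every mouse on probe A_52_P282058, at 1.36 and 0.65 in the mutant mice, against 0.34 and 1.17 in the null mice. The means against the pool were 1.01 (SE 0.27; adjusted p = 0.453 in limma) for mutant and 0.76 (SE 0.27; adjusted p = 0.479) for null. A second probe was not well above background in the pool and passed the filter only through the mutant mice. Its measured mean signal in the mutant mice was 1.17-fold that of the pool. Across the class, 3 of 21 probes were above the pool in all 4 mice and 6 below it, where 16.7% and 14.9% of all probes were. The dyes were not swapped, so a gene that takes up 1 dye better cannot be told apart from one that differs from the pool.

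The genotypes separated without overlap on 8 of the 21 other collagen probes, 3 higher and 5 lower in the mutant mice, beside 16.8% and 13.6% of all probes. Col23a1, a transmembrane collagen, stood at -0.91 and -0.55 in the mutant mice, against -0.05 and -0.36 in the null mice. The difference of -0.52 (SE 0.23; unadjusted p = 0.0706, adjusted p = 0.985 in limma) had the smallest unadjusted p of any collagen. Its second probe gave -0.09 and -0.26 in the mutant mice, against -0.12 and -0.21 in the null mice, which overlap, so the separation rests on 1 probe. Col20a1, a fibril-associated type, stood at 0.03 and -0.16 in the mutant mice, against 0.55 and 0.18 in the null mice, a difference of -0.43 (SE 0.22).

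Smaller separations complete the count. Col13a1, a transmembrane collagen of cell junctions, stood at -0.18 and -0.10 in the mutant mice, against -0.37 and -0.26 in the null mice. A second Col13a1 probe overlapped, at -0.11 and -0.25 in the mutant mice, against -0.02 and -0.26 in the null mice, so the separation rests on 1 probe. Col9a2, a chain of the type that decorates cartilage fibrils, stood at 0.07 and -0.20 in the mutant mice, against -0.21 and -0.20 in the null mice. Col25a1, a membrane collagen known from neurons, stood at -0.11 and -0.09 in the mutant mice, against 0.01 and -0.03 in the null mice. Its probe was dim, with a mean log2 intensity of 6.36 beside a median of 8.22 for all probes. It was not well above background in null mouse 1 and passed the filter only through the mutant mice. For Col13a1, Col9a2 and Col25a1 the gap between genotypes is smaller than 0.1, and Col9a2 turns to -0.16 with median centring.

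Type VI collagen forms beaded filaments around cells from 3 chains that are assembled together. Col6a1 stood at 0.33 and 0.27 in the mutant mice, against -0.32 and 0.30 in the null mice. Col6a2 stood at 0.53 and 0.41 in the mutant mice, against -0.18 and 0.54 in the null mice, and a second probe overlapped likewise. Col6a3, the third chain, took the other direction, at -0.42 and -0.13 in the mutant mice, against 0.05 and 0.46 in the null mice. The mutant mice were both below the pool and the null mice both above it, with a difference of -0.53 (SE 0.23; unadjusted p = 0.0720, adjusted p = 0.985 in limma). It is the only collagen probe past the filter for which every mouse of one genotype lay on one side of the pool and every mouse of the other genotype on the other side. The share of all probes with that arrangement was not counted, so how unusual it is cannot be told. Without overlap and lower in the mutant mice were 13.6% of all probes.

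The remaining collagens had gaps within a genotype. Col14a1, which binds the surface of type I fibrils, stood at 0.54 and 0.20 in the mutant mice, against -1.17 and 1.31 in the null mice, the widest gap between the null mice of all collagen probes. Col8a2, partner of Col8a1, stood at 0.37 and 0.07 in the mutant mice, against -0.65 and 0.41 in the null mice. Col17a1, a transmembrane collagen of the hemidesmosomes of basal epithelial cells, stood at 0.66 and -0.04 in the mutant mice, against 1.12 and -0.03 in the null mice on its brighter probe. A second Col17a1 probe gave 0.23 and -0.06 in the mutant mice, against 0.58 and -0.11 in the null mice. Here the mice numbered 1 were high in both genotypes, and null mouse 1, lowest for the fibrillar chains, was highest.

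**Figure D4:**
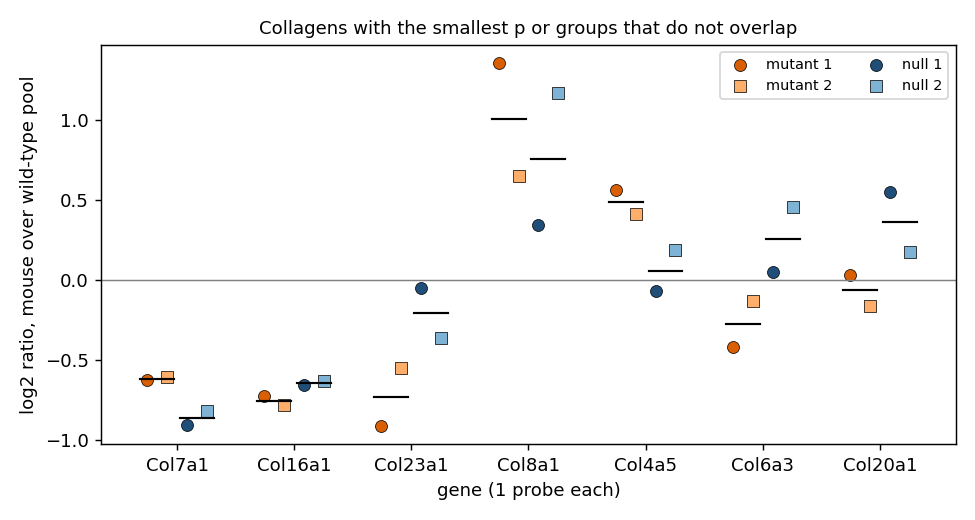
Log2 ratio to the wild-type pool (vertical axis) of 7 collagens of smallest p or without overlap between the genotypes (horizontal axis, 1 probe each). Points are mice and horizontal lines the mean of the 2 mice of a genotype, mutant left of null. Col7a1 and Col16a1 lie below 0 in all 4 mice, while Col6a3 has the mutant mice below 0 and the null mice above it.

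For a few probes past the filter, one group was not well above background on any of its arrays. By means, the signal of Col4a3 (A_52_P469744) in mutant mice was 1.17-fold that in null mice and 1.04-fold that in the pool. For Col27a1 (A_52_P129388) it was 1.07-fold that in null mice and 0.971-fold that in the pool. For Col15a1 (A_52_P170882) it was 1.02-fold that in the pool, and for Col22a1 (A_52_P434306) 0.992-fold that in null mice. These folds set the mean of the group well above background against the higher of the dimmest signal well above background and the probe's own signal in the other group. The probe's own signal was the higher each time, so the folds are measured ratios and not bounds. They set no upper limit. The genotypes overlapped on the Col4a3, Col27a1 and Col22a1 probes. With processed signals the difference, mutant minus null, was 0.91 for this Col27a1 probe and 0.43 for this Col4a3 probe. Each of the probes in this paragraph passed the filter only through the mutant mice. That choice favours probes with high mutant values, so no difference is read from these folds or from the processed signals.

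The genes that fold, process and bind collagen followed its pattern for some members and not for others. No probe of these lists passed the threshold in limma. Of 24 probes of chaperones and modifying enzymes, 1 had an unadjusted p under 0.05 between the genotypes, Serpinh1, beside 2.19% of all probes. It codes for the collagen chaperone Hsp47, which is itself a heat shock protein, and stood at -0.45 and -0.10 in the mutant mice, against 1.23 and 0.37 in the null mice. P4ha1, a catalytic subunit of the prolyl hydroxylase that stabilises the helix, stood at -0.23 and 0.23 in the mutant mice, against 1.19 and 0.38 in the null mice. Null mouse 1 was highest for both, the reverse of its place for Col1a1, Col1a2 and Col3a1. The list as a whole differed from these 2 members. Its medians were -0.03 and 0.04 in the mutant mice, against -0.19 and 0.10 in the null mice. On 6 of the 24 probes null mouse 1 was lowest and null mouse 2 highest, beside 11.7% of all probes. Null mouse 1 also had the high heat shock values given above, whose part in the Serpinh1 result was not tested.

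Crosslinking and fibril-binding genes were near the collagens in pattern for some members. Of 15 probes of processing and crosslinking genes, 2 were below the pool in the mutant mice at an unadjusted p under 0.05, beside 4.35% of all probes, and 3 in the null mice, beside 5.38%. All of these were probes of Tgm2, which codes for a transglutaminase, so the counts stand for a single gene. Its probe A_51_P182796 stood at -0.79 and -0.83 in the mutant mice, against -0.99 and -0.45 in the null mice. On 7 of the 15 probes of the list null mouse 1 was lowest and null mouse 2 highest, beside 11.7% of all probes. Fibril-associated proteoglycans and glycoproteins had medians over 22 probes of 0.09 and 0.28 in the mutant mice, against -0.25 and 0.63 in the null mice. On 10 of these 22 probes null mouse 1 was lowest and null mouse 2 highest. Postn, which codes for periostin, lay above the pool in every mouse, at 0.22 and 0.33 in the mutant mice, against 0.42 and 0.67 in the null mice.

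Other basement membrane genes had medians over 18 probes of -0.09 and -0.05 in the mutant mice, against -0.24 and -0.05 in the null mice. The laminin chain gene Lamb3 stood at -0.50 and -0.58 in the mutant mice, against 0.38 and -0.33 in the null mice. Collagen receptors stayed between 0.14 and 0.21 in every mouse by their median over 12 probes. For genes of the TGF-beta pathway, which is known to induce fibrillar collagen, the median over 21 probes was 0.05 and 0.07 in the mutant mice, against 0.07 and 0.18 in the null mice. Its matrix target Ctgf stood at 0.94 and 0.27 in the mutant mice, against 3.03 and 1.25 in the null mice, so it was highest in the mouse whose fibrillar collagens were lowest. At an unadjusted p under 0.05 in limma, 6 of the 21 probes were higher and 1 lower for null against pool, beside 4.82% and 5.38% of all probes. For mutant against pool 3 were higher, beside 6.26%. The genotypes did not overlap on 10 of the 21, 4 higher and 6 lower in the mutant mice, beside 16.8% and 13.6%. The part of this pathway in the collagen values was not tested.

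By their median, markers of fibroblasts went with the fibrillar pattern, though not every member did. Fibroblast markers other than collagens had medians over 16 probes of 0.34 and 0.49 in the mutant mice, against -0.46 and 0.76 in the null mice. Null mouse 1 was lowest and null mouse 2 highest on 8 of the 16, beside 11.7% of all probes. Null mouse 2 was at least 2-fold above null mouse 1 on 10 of the 16, beside 3.97% of all probes. Twist2, the fibroblast member of smallest unadjusted p, did not have null mouse 1 lowest. It stood at 0.11 and 0.17 in the mutant mice, against 0.31 and 0.58 in the null mice, so null mouse 1 lay above both mutant mice. Fbln1, which codes for fibulin-1, stood at 1.96 and 1.18 in the mutant mice, against -0.69 and 1.85 in the null mice. Macrophage markers had null mouse 1 lowest and null mouse 2 highest on 15 of 17 probes, beside 11.7% of all probes. Their medians were 0.63 and 0.68 in the mutant mice, against -0.19 and 1.19 in the null mice. This order is thus not limited to genes of fibroblasts or of matrix. The part of cell content in the collagen values was not tested.

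The order was mixed in other cell types. Adipocyte markers had medians over 13 probes of 0.49 and 1.03 in the mutant mice, against -0.65 and 0.92 in the null mice. Only 3 of the 13 had null mouse 1 lowest and null mouse 2 highest, beside 11.7% of all probes. Null mouse 2 was at least 2-fold above null mouse 1 on 7 of the 13, beside 3.97% of all probes. Schwann cell markers had medians over 8 probes of 0.02 and 0.52 in the mutant mice, against -0.38 and 0.32 in the null mice. They had such a 2-fold gap on 4 of the 8, but null mouse 1 lowest and null mouse 2 highest on 0 of the 8. Null mouse 1 was thus lowest by median in both lists. Endothelial and pericyte markers had medians over 15 probes of -0.05 and 0.27 in the mutant mice, against 0.06 and 0.20 in the null mice, and 5 of the 15 had null mouse 1 lowest and null mouse 2 highest, beside 11.7% of all probes. Smooth muscle markers had medians over 20 probes of -0.31 and -0.52 in the mutant mice, against 0.17 and -0.12 in the null mice. They did not overlap, lower in the mutant mice, on 15 of 20 probes, beside 13.6% of all probes. An unadjusted p under 0.05 was found for 7, all lower, beside 0.995% of all probes, among them Acta2 at -0.98 and -0.77 in the mutant mice, against 0.72 and -0.06 in the null mice. Basal epithelial markers, a list that includes Col17a1, had medians over 15 probes of 0.02 and -0.06 in the mutant mice, against 0.62 and -0.05 in the null mice. Luminal epithelial markers had medians of 0.15 and 0.04 in the mutant mice, against 0.74 and -0.19 in the null mice. Null mouse 1 was thus highest by median for both epithelial lists and lowest for the fibroblast and macrophage lists.

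**Figure D5:**
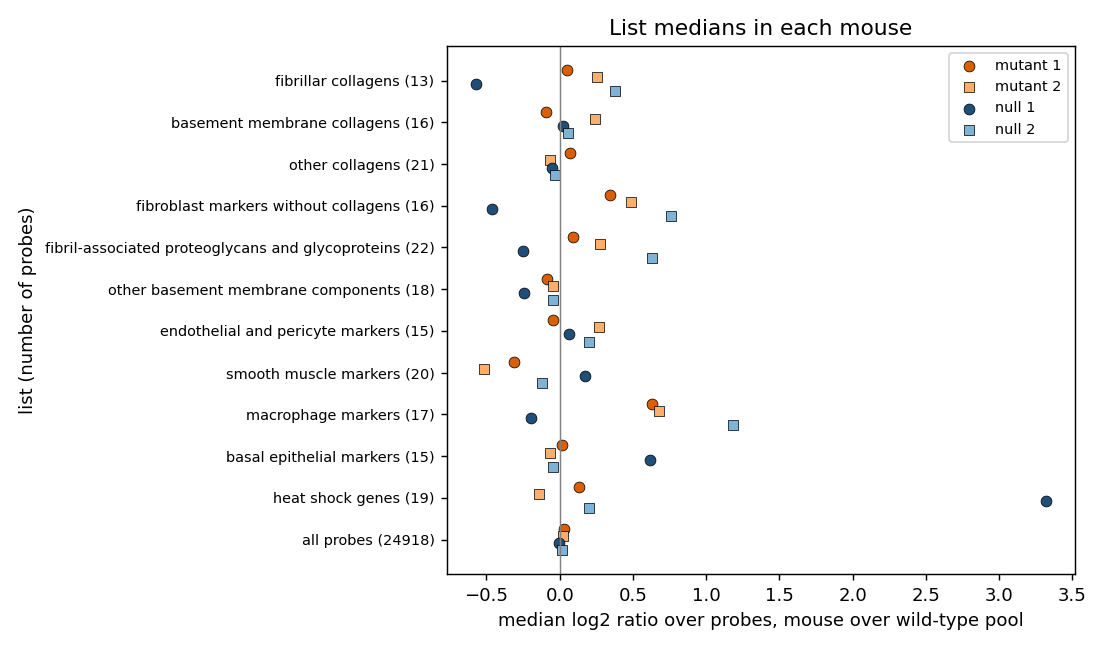
Median log2 ratio to the wild-type pool over the probes of each list (horizontal axis) in each mouse, with lists down the page and the number of probes in brackets. Fibrillar collagens, fibroblast markers and macrophage markers have null mouse 1 lowest and null mouse 2 highest, heat shock genes have null mouse 1 at 3.32, and all probes lie within 0.03 of 0.

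The authors' deposited table of group means holds 41 collagen rows. By accession 15 of them matched a single probe here and 11 of those passed the filter. The direction of mutant over null in the authors' deposited table was the same as in the fit here for 11 of 11. Among the 15, Col9a3, which did not pass the filter, had opposite directions. Col1a1, Col3a1 and Col4a1 were not among the rows matched to a single probe. These are the same arrays, and that table lists no ratio under 1.13, so rows near no change are missing from it.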

How the data were processed

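The deposited scanner files give each spot's brightness as intensity in the red and green channels, with background medians and flags, per the file headers. Agilent Feature Extraction read the images, in version 9.5.1.1 per the file headers and 8.5 per the submitters' processing notes. The deposited log10 ratio per spot is the authors' scanner output and was not used in the results. The authors' deposited table holds a linear ratio of group means and has no p-value.

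Mean signals were corrected with normexp (offset 50) and normalised by loess within each array in limma 3.58.1 under R 4.3.3, with controls at weight 0 and flagged spots left out. Spots of a probe were averaged. No spot was saturated. The offset narrows the ratios of dim probes, and precision is limited by the number of arrays. A probe was well above background when at least 1 in 2 of its spots was. lmFit and eBayes were fitted to the 24918 probes past the filter with a term for each genotype, and p-values were adjusted by Benjamini-Hochberg over all of them, with a threshold of 0.05. The pool counts as 1 control sample, so its own spread is left out. Tested on simulated data of 24918 probes for mutant against null, the fit recovered 0 of 50 probes changed by 1 on the log2 scale, 30 of 50 changed by 2, 47 of 50 changed by 3 and 46 of 50 changed by 4, with 6 false calls.

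The rule for named collagens took Col1a1, Col3a1 and Col4a1, probes whose genotypes did not overlap, and probes of unadjusted p under 0.05 with both mice of a genotype on 1 side of the pool. Other collagens were added where they belong to the same chain family. From other lists it took up to 4 members of smallest unadjusted p. The members, lists and rule were chosen with earlier results of these data known. Accessions of 57 of the 78 collagen probes were found in RefSeq (GRCm38.p6), all under the same symbol. The collagens Col26a1 and Col6a6 each have a probe under an older name that the rule did not take. Alternatives were other background and normalisation settings, filters, the replicate number as a block and leaving out each mouse.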

Additional observations from a re-analysis of the deposited data

Results flagged for a closer look

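Col6a3, a chain of type VI collagen, had both mutant mice below the wild-type pool and both null mice above it, with a difference, mutant minus null, of -0.53 on the log2 scale (SE 0.23). The test of the difference gave an unadjusted p of 0.0720 and an adjusted p of 0.985 in limma, so it did not pass. It was -0.73 without null mouse 1 and -0.33 without null mouse 2. The 2 other Col6a3 probes were too dim to be tested. How many of all probes had the genotypes on opposite sides of the pool was not counted. Without overlap and lower in the mutant mice were 13.6% of all probes. Groups of 2 mice are too small for a check of single outlying mice.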

How the results depend on the processing

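No collagen passed the threshold under any alternative. Over all probes, the 0 calls between mutant and null became 31 without null mouse 2 (0 to 31 over the fits without 1 mouse), and unadjusted counts without that mouse reached 4121. Calls for mutant against pool were 2 with offset 16, 2 with both channels well above background on all arrays, 2 with the brightest probe per gene and 0 to 2 without 1 mouse. Calls for null against pool were 2 with offset 16, 2 with both channels well above background, and 0 to 385 without 1 mouse, the 385 without null mouse 2. In such fits the lone mouse of a genotype is assumed to vary like the other genotype. The mouse numbers do not pair the samples (correlation of same-numbered deviations 0.00355), and with the replicate block there were 0 calls in each comparison, with 441, 2423 and 2440 probes at an unadjusted p under 0.05.

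Between mutant and null, the fibrillar median of 0.15 was 0.40 with processed signals, 0.062 with no filter on dim probes and -0.11 to 0.62 without 1 mouse. The basement membrane median of 0.01 ranged from -0.051 to 0.20 without 1 mouse. The other collagens' median of -0.02 was -0.16 with median centring, 0.068 with both channels well above background, 0.10 with the brightest probe per gene and -0.079 to 0.11 without 1 mouse. Against the pool, the fibrillar mutant median of 0.16 was 0.35 with processed signals and 0.012 with no filter. The basement membrane mutant median of 0.032 was 0.21 with processed signals, 0.24 with median centring and -0.097 to 0.24 without 1 mouse, and that of other collagens ranged from -0.065 to 0.070 without 1 mouse. For null against pool, the fibrillar median of -0.0013 was -0.11 with processed signals and -0.57 to 0.38 without 1 mouse, and the basement membrane median of 0.04 was 0.18 with processed signals, 0.12 with median centring and 0.071 with the brightest probe per gene. That of other collagens, -0.0077, was 0.011 with processed signals, -0.033 with offset 16, -0.083 with median centring, 0.030 with both channels well above background and -0.049 to -0.0077 without 1 mouse.

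Median centring in place of loess moved the median of all probes to 0.38, 0.60 and 0.14 in the 3 comparisons, and values under it are relative to that. It turned the sign of mutant minus null for Col16a1 (0.13), Col1a1 A_52_P525107 (0.21), Col4a1 (0.024 and 0.17), Col4a3 (-0.10), Col4a4 (0.039) and Col9a2 (-0.16). Processed signals turned Col1a1 A_52_P525107 (0.048). Without null mouse 1, Col1a1 A_51_P377094 (-0.26) and Col3a1 (-0.40) turned. Without mutant mouse 1, Col1a1 A_52_P525107 (0.32) and Col4a1 (0.14 and 0.21) turned, and without null mouse 2, Col1a1 A_52_P525107 (0.58) and Col4a1 A_52_P518827 (0.15). Over the fits without 1 mouse, Col1a1 A_51_P377094 ranged from -0.26 to 0.95, Col1a1 A_52_P525107 from -0.65 to 0.58, Col3a1 from -0.40 to 1.51, and Col4a1 from -0.52 to 0.14 and from -0.21 to 0.21 on its 2 probes. The cause was not tested. The other 280 values of named probes kept their direction and their side of the threshold.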
